A study of Mus musculus with 6 samples.

Results

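The Slc25 genes encode the mitochondrial carrier family, the proteins that move metabolites, nucleotides, cofactors and ions across the inner membrane of mitochondria. Members were taken as the protein-coding genes of the count table whose symbol starts with Slc25a, which gave 47 of 57180 listed genes. Their RNA was measured in inguinal white adipose tissue (iWAT), a fat depot under the skin, from wild-type mice on a high-fat diet. The ADISSP group, 3 libraries from diet-induced obese mice, received recombinant Adissp, a protein secreted by fat tissue, at 68 nmol/kg every day for 33 days. The Control group, also 3 libraries, shared the genotype, the diet, the tissue and sequencing batch 1. The labels call the libraries biological triplicates but give neither what the Control mice received nor the age or sex of the animals. The question for the carriers is which of them differed in RNA level between treated and Control fat.

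Each carrier is built from a module, repeated in tandem, that spans the inner membrane, and most members exchange a solute on one side for another on the opposite side. They supply the matrix with ADP, phosphate, fatty acyl groups, amino acids and cofactors, and they release ATP, citrate and other products to the cytosol. In brown and beige fat cells, which burn fuel for heat in many mitochondria, the relative Ucp1 carries protons instead. In white fat cells, citrate that leaves through a carrier feeds fatty acid synthesis.

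Depth was 10357930 to 15658428 counts per library, and 17320 genes, 41 of them carriers, had enough counts to be tested. Markers of fat cells summed to 16598, 15145 and 17324 counts per 1e+06 (CPM) in ADISSP 1, 2 and 3, against 12788, 11430 and 15311 CPM in Control 1, 2 and 3, so fat cell RNA was abundant in every library. The libraries also differed in markers of other cells. All 7 brown and beige fat cell markers rose, with sums of 4656, 4901 and 4147 CPM in ADISSP, against 117, 119 and 201 CPM in Control. All 6 B cell markers fell, with sums of 3.25, 6.30 and 5.83 CPM in ADISSP, against 266, 324 and 63.7 CPM in Control. The 5 T cell markers fell too, with sums of 10.4, 12.2 and 12.4 CPM in ADISSP, against 101, 136 and 32.3 CPM in Control, and so did the 5 macrophage markers. Of fibroblast and progenitor markers 3 of 5 fell, and of blood endothelium markers 2 of 3. Macrophage sums were 174, 188 and 142 CPM in ADISSP, against 438, 404 and 383 CPM in Control. Of 10 skeletal muscle markers 1 rose and 0 fell, with sums of 3930, 4639 and 4585 CPM in ADISSP, against 38.4, 51.4 and 11050 CPM in Control. Liver markers summed to 11.5 to 19.6 CPM in ADISSP and 37.2 to 89.2 CPM in Control, and 0 of 6 mammary epithelium markers passed the count filter. RNA encoded by mitochondrial DNA took 8.43% to 11.1% of counts in ADISSP and 3.13% to 4.20% in Control. The part of these shifts in the carrier results was not tested. In bulk tissue, fewer cells of a type and less RNA per cell cannot be told apart.

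Of the 41 carriers tested, 21 rose in ADISSP (51.2%), 3 fell (7.32%) and 17 did not pass, by edgeR's quasi-likelihood test with a Benjamini-Hochberg adjusted p under 0.05 over all genes tested. Over all 17320 genes, 35.0% were called, 18.5% higher and 16.5% lower, and over the protein-coding genes tested 20.4% were called higher and 17.5% lower. The carriers' share of higher calls thus stood above that of the table and their share of lower calls below it. The median log2 fold change (ADISSP minus Control) of the carriers was 0.51, against -0.01 for all genes tested, with a range of -0.86 to 4.49. Of the carriers that rose, 13 did so by at least 2-fold and 8 by less, and 0 fell by 2-fold. Slc25a48, among the 13, passed the count filter through its ADISSP libraries alone. In 25 carriers every ADISSP library lay above every Control library, and in 6 every ADISSP library lay below. Over all genes tested those shares were 26.0% and 23.8%, or 49.8% in either direction. In the accounts that follow, 3 values for a group are its libraries 1, 2 and 3, CPM use the scaled library total, and SE is the standard error of the log2 fold change.

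**Figure D1:**
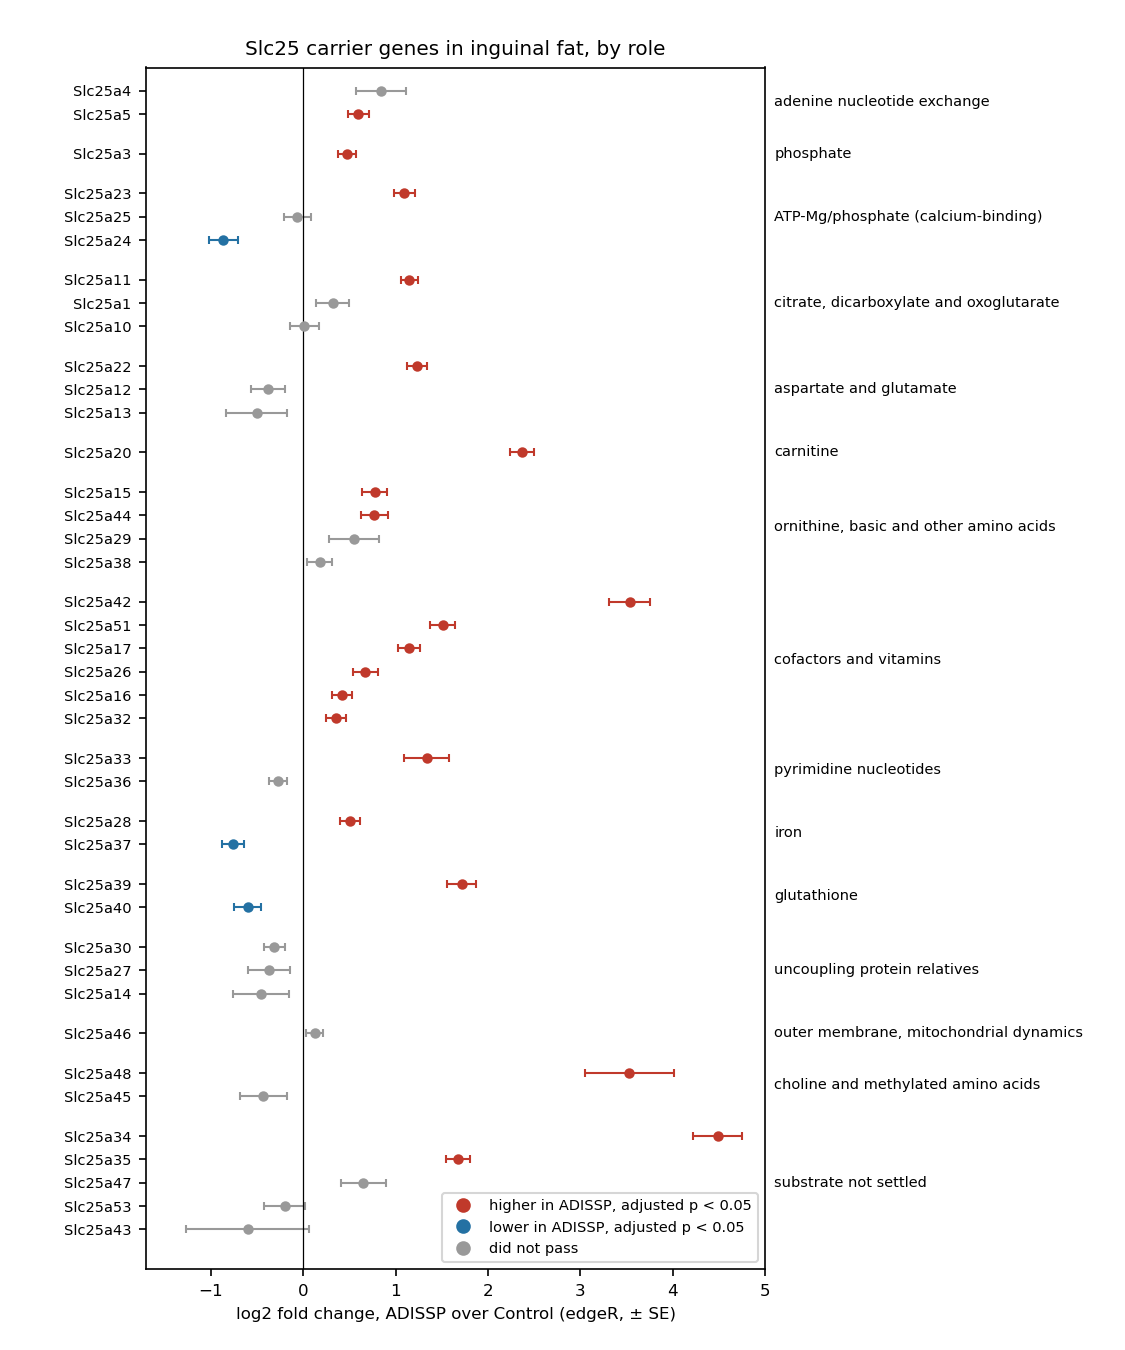
Log2 fold change (ADISSP minus Control) of 40 of the 41 tested carriers, grouped by transported substance, with bars of 1 SE and colours for the call. Points to the right of 0 are higher in ADISSP. The carriers shown that rose reach from 0.36 to 4.49, with Slc25a34 farthest right, and Slc25a24, Slc25a37 and Slc25a40 are the 3 that fell. On log2(TPM + 1), Slc25a1, Slc25a3, Slc25a10, Slc25a16, Slc25a28, Slc25a29, Slc25a32, Slc25a38 and Slc25a46 lie on the other side of 0.

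The promoters of 3 carriers are shown because these genes carry the strongest changes: Slc25a34 and Slc25a42 had the largest fold changes and Slc25a20 the smallest p. Each line gives the 250 bases before the RefSeq transcription start on build GRCm38.p6, 5′ to 3′ in the direction of transcription. The capitals in Slc25a34 mark TGACCTT, the reverse complement of AAGGTCA, a half-site that nuclear receptors of the estrogen-related receptor type bind.
Slc25a34 (chr4:141623835-141624084, minus strand): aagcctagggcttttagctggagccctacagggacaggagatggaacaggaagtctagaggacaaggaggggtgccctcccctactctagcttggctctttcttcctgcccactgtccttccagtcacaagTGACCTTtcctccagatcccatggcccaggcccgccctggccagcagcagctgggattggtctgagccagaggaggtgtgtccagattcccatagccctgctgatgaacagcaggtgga
Slc25a42 (chr8:70212282-70212531, minus strand): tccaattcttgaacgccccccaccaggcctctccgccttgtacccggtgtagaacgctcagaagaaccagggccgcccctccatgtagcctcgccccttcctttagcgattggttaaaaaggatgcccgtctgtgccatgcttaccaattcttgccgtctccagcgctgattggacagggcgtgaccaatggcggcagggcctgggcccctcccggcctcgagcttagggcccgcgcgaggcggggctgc
Slc25a20 (chr9:108661886-108662135, plus strand): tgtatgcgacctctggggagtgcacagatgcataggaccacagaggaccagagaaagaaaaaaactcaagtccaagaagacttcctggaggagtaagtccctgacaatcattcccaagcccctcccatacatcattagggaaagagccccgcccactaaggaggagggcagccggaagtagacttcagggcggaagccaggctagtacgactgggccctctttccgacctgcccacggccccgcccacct
The RefSeq table held 46 such windows for 36 of the 47 carriers, 15 of them carriers that rose. Both strands were searched for AAGGTCA, for the longer TNAAGGTCA that contains it, for the cyclic AMP response element TGACGTCA, and for CGCATGCG, the core that NRF1 binds. AAGGTCA was in the window of Slc25a34, 119 to 113 bases before the start, and of no other carrier, against 4.08% of all 32851 windows in the table. TGACGTCA was in the windows of Slc25a25 and Slc25a36, neither of which passed the test, and in 1.55% of all windows. TNAAGGTCA and CGCATGCG were in 0 carrier windows, against 1.14% and 1.55% of all. A match is a stretch of letters only, and the data hold no measure of binding.

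Slc25a20, the carnitine-acylcarnitine carrier that brings long-chain fatty acyl groups into the matrix for oxidation, had the smallest p of the family. It stood at 401, 394 and 344 CPM in ADISSP, against 71.0, 64.9 and 84.5 CPM in Control. Every ADISSP library lay far above every Control library, and the fold was 5.17 (log2 fold change 2.37, SE 0.13, adjusted p = 1.0e-05). The enzymes that make and unmake its cargo moved with one exception. Carnitine palmitoyltransferases Cpt1b (log2 fold change 3.01, adjusted p = 2.3e-04) and Cpt2 (1.81, adjusted p = 5.7e-05) rose, as did carnitine acetyltransferase Crat (1.96) and the plasma membrane carnitine transporter Slc22a5 (0.97). Cpt1a, the form of the outer membrane enzyme best known from liver, fell (log2 fold change -0.73, SE 0.10, adjusted p = 8.3e-04). Cpt1b, the form of muscle and brown fat, measured 8.32, 6.52 and 7.68 CPM in ADISSP, against 0.964, 0.551 and 1.30 CPM in Control, and the part of muscle RNA in that value was not tested.

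Of the carriers of cofactors and vitamins, 7 of 7 rose, with a median log2 fold change of 1.15, although Slc25a16 (-0.16) and Slc25a32 (-0.20) were lower on log2(TPM + 1). Slc25a42, which imports coenzyme A, stood at 307, 329.9 and 278 CPM in ADISSP, against 19.5, 24.0 and 35.5 CPM in Control. The 3 ADISSP libraries lay far above the 3 Control libraries, and the fold was 11.6 (log2 fold change 3.54, SE 0.22, adjusted p = 3.0e-05). Slc25a51, the NAD+ importer, measured 559.8, 533 and 465 CPM in ADISSP, against 181, 158 and 209 CPM in Control, with no overlap between groups (log2 fold change 1.51, SE 0.14, adjusted p = 7.3e-05). Slc25a17, which carries coenzyme A, FAD and NAD+ in the membrane of peroxisomes, measured 87.7, 78.9 and 76.5 CPM in ADISSP, against 41.8, 32.3 and 35.9 CPM in Control (log2 fold change 1.15, SE 0.12, adjusted p = 1.5e-04). Other members moved less. Slc25a26, the importer of S-adenosylmethionine for methylation in the matrix, averaged 22.1 ± 1.51 CPM in ADISSP and 13.9 ± 1.69 CPM in Control (log2 fold change 0.67, SE 0.14, adjusted p = 0.0057). Its call was lost on library totals (0.32) and on log2(TPM + 1) (0.09). Lrig1 overlaps Slc25a26 on the opposite strand by 144 bases and was higher as well (0.60), with 4259 counts against 1480 for Slc25a26. The part of Lrig1 in the Slc25a26 value was not tested. Slc25a16, a candidate carrier linked to coenzyme A, averaged 59.6 ± 5.54 CPM in ADISSP and 44.7 ± 3.84 CPM in Control (log2 fold change 0.42, SE 0.11, adjusted p = 0.0164), and its call was lost without ADISSP 1, Control 1 or Control 2, with an adjusted p of up to 0.0645. Slc25a32, linked to folate and FAD import, averaged 31.8 ± 1.25 CPM in ADISSP and 24.8 ± 1.91 CPM in Control (log2 fold change 0.36, SE 0.11, adjusted p = 0.0312). Its call was lost in 5 of the 6 fits that leave out a library, with an adjusted p of up to 0.0955. On library totals the calls of Slc25a16 (0.07) and Slc25a32 (0.0015) were lost too.

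In the deposited tables (GRCm39) Slc25a20 is ENSMUSG00000032602, chr9:108539287-108561840, plus strand. Slc25a42 is ENSMUSG00000002346, chr8:70636990-70664955, minus strand, and Slc25a34 is ENSMUSG00000040740, chr4:141346135-141351132, minus strand. The substrates of Slc25a34 and Slc25a35, close relatives of each other, are not settled. Slc25a34 stood at 30.0, 31.5 and 24.7 CPM in ADISSP, against 0.908, 1.05 and 1.91 CPM in Control, which put its fold at 22.5, the largest of the family (log2 fold change 4.49, SE 0.27, adjusted p = 1.3e-05). Slc25a35 stood at 120.2, 119 and 102 CPM in ADISSP, against 35.5, 30.2 and 40.7 CPM in Control, a smaller rise (log2 fold change 1.68, SE 0.13, adjusted p = 3.0e-05). Both groups were apart for both genes, in each case with ADISSP above. Slc25a35 overlaps Rangrf on the opposite strand by 1882 bases. Rangrf had 175 counts, against 5789 for Slc25a35, and its part in the Slc25a35 value was not tested. Of the other carriers with an unsettled substrate, Slc25a47 (log2 fold change 0.65), Slc25a53 (-0.20) and Slc25a43 (-0.60) did not pass. Slc25a48, a carrier of choline, measured 11.7, 12.3 and 11.2 CPM in ADISSP, against 0.397, 0.716 and 1.98 CPM in Control, and its fold was 11.6 (log2 fold change 3.53, SE 0.48, adjusted p = 0.00137). That size rests on Control 3, since the log2 fold change was 4.36 without it and 2.54 against it as the only control. It entered the test through its ADISSP libraries alone, since in Control only some libraries reached the count minimum. Slc25a45, placed with it in the list, averaged 7.02 ± 0.436 CPM in ADISSP and 9.48 ± 3.14 CPM in Control, and did not pass (log2 fold change -0.43, SE 0.25, adjusted p = 0.217). Slc25a45 was called lower without Control 3 (-0.69, adjusted p = 0.007), on library totals (-0.80) and on log2(TPM + 1) (-0.87), while against Control 3 as the only control its estimate was 0.23, on the other side of 0.

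**Figure D2:**
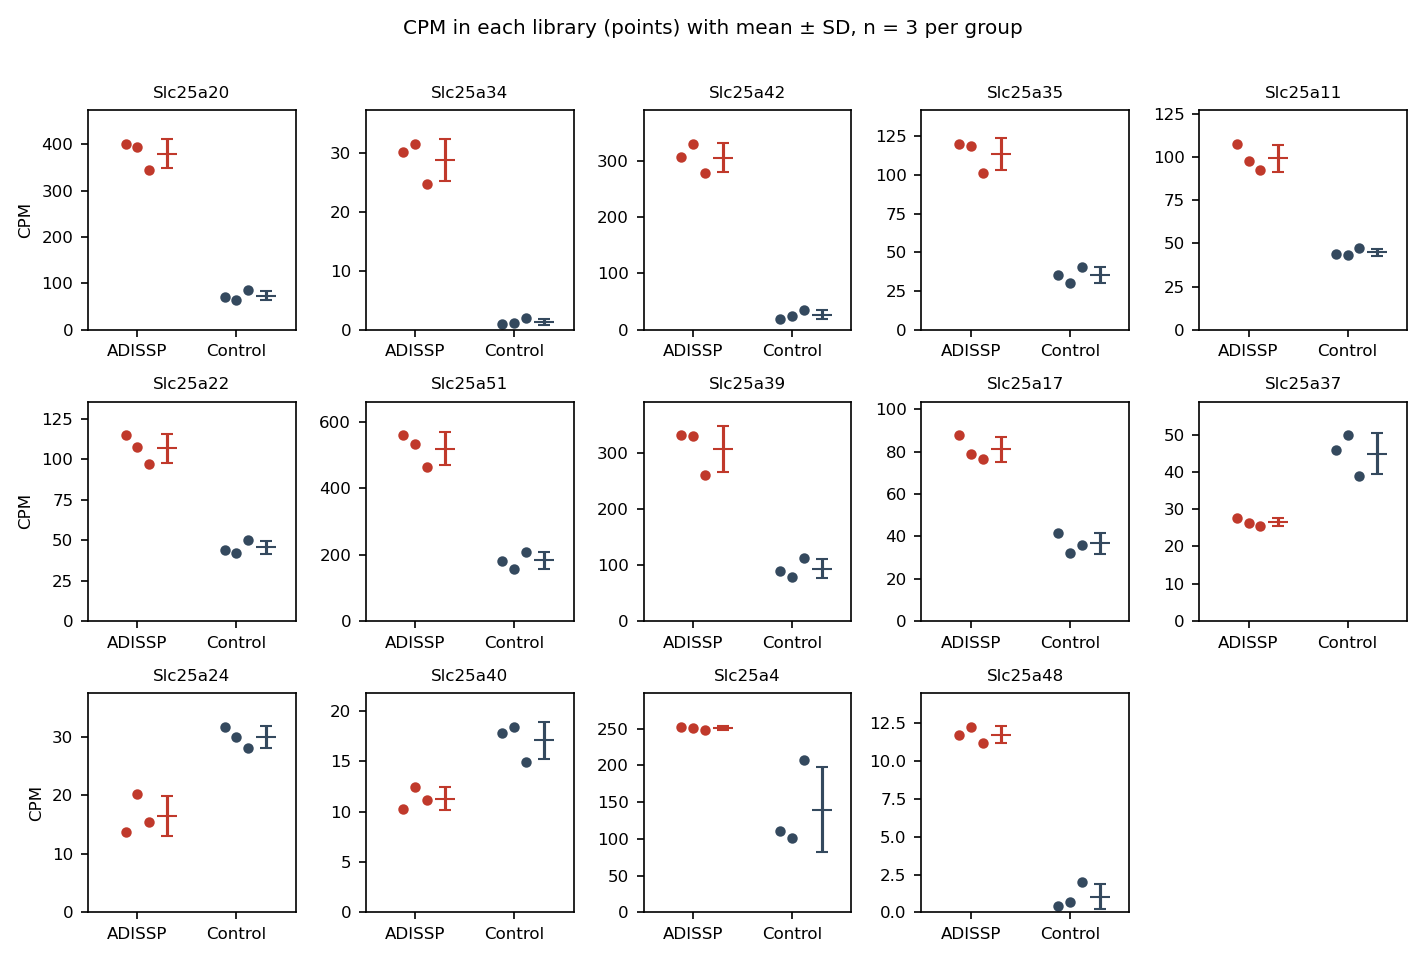
CPM of 14 carriers on linear axes that start at 0, with 1 point per library, bars for the mean ± SD (n = 3) and ADISSP left of Control. The panels hold 9 of the 10 with the smallest p, the 3 that fell, Slc25a4 and Slc25a48. Slc25a20, Slc25a34 and Slc25a42 show a wide gap between groups, while the Control 3 point of Slc25a4 lies nearer the ADISSP points than those of Control 1 and Control 2.

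Adenine nucleotide exchange, the swap of cytosolic ADP for matrix ATP, was carried by 2 expressed isoforms. Slc25a5, the isoform common in dividing cells, measured 287, 275 and 253 CPM in ADISSP, against 201, 165 and 174 CPM in Control, and rose (log2 fold change 0.60, SE 0.11, adjusted p = 0.00408), and its estimate was not past the threshold on library totals or on log2(TPM + 1). Slc25a4, the isoform of heart and skeletal muscle, measured 253, 251 and 248 CPM in ADISSP, against 111, 101 and 207 CPM in Control. Its groups did not overlap, yet it did not pass (log2 fold change 0.84, SE 0.27, adjusted p = 0.0522), and Control 3 stood nearer to the ADISSP libraries than to the other Control libraries. Slc25a4 was called higher with DESeq2 (log2 fold change 0.83, adjusted p = 0.00278), with the replicate number as a block (0.92, adjusted p = 0.03) and without Control 3 (1.23, adjusted p = 8.9e-07). Against Control 3 as the only control its estimate was 0.27. Control 3 is the library with 11050 CPM of skeletal muscle markers, and the part of muscle RNA in the Slc25a4 value was not tested. Slc25a31, the isoform of testis, had 3 counts in all 6 libraries together. Slc25a3, the phosphate carrier that supplies the substrate of ATP synthase, averaged 273 ± 18.6 CPM in ADISSP and 196 ± 9.97 CPM in Control (log2 fold change 0.48, SE 0.10, adjusted p = 0.00721), although on log2(TPM + 1) it was lower (-0.10). The Slc25a3 call was also lost on library totals (0.12). A long noncoding RNA, Gm56945, overlaps Slc25a3 on the opposite strand by 654 bases and was higher as well, with 748 counts against 19534 for Slc25a3.

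The ATP-Mg/phosphate carriers, which calcium switches on and which set the size of the matrix adenine nucleotide pool, moved in opposite directions. Slc25a23 averaged 200.4 ± 5.49 CPM in ADISSP and 93.8 ± 12.1 CPM in Control, and rose (log2 fold change 1.10, SE 0.11, adjusted p = 1.6e-04). Slc25a24 measured 13.8, 20.2 and 15.4 CPM in ADISSP, against 31.8, 30.0 and 28.0 CPM in Control, the largest fall in the family (log2 fold change -0.86, SE 0.16, adjusted p = 0.00333), with all ADISSP libraries below all Control libraries. Slc25a25 measured 65.2, 64.7 and 71.1 CPM in ADISSP, against 68.5, 56.4 and 85.1 CPM in Control, overlapping and near 0 (log2 fold change -0.06, SE 0.14, adjusted p = 0.765), and its estimate was 0.09 without Control 3. The related Slc25a41 and Slc25a54 had 1 count each. Within the pair Slc25a25 and Slc25a24, Slc25a25 took 67.3%, 58.2% and 66.8% of the summed TPM in ADISSP, against 48.5%, 45.1% and 57.0% in Control. TPM are scaled for gene length, so levels of different genes can be compared within a library. The shares did not overlap, and the exact two-sided permutation p was 0.1, the smallest that 3 against 3 libraries can give.

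Carriers of citrate and other acids of the Krebs cycle included Slc25a1 and Slc25a10, which were among the 5 carriers with the highest TPM. Slc25a1, the citrate exporter, measured 421, 365 and 279 CPM in ADISSP, against 256, 254 and 345 CPM in Control, and did not pass (log2 fold change 0.32, SE 0.18, adjusted p = 0.2), and its estimate was -0.27 on log2(TPM + 1). Control 3 decided that call, since without it Slc25a1 was called higher (0.47, adjusted p = 0.0281), and against Control 3 as the only control its estimate was 0.03. Slc25a10, which exchanges malate or succinate for phosphate, measured 371, 302 and 263 CPM in ADISSP, against 316, 260.1 and 354 CPM in Control. Its groups overlapped almost fully (log2 fold change 0.01, SE 0.16, adjusted p = 0.968), and on log2(TPM + 1) it was lower, at -0.57. Slc25a11 exchanges oxoglutarate for malate and forms part of the malate-aspartate shuttle, which moves reducing power into the matrix. It measured 108, 97.7 and 92.4 CPM in ADISSP, against 43.7, 43.4 and 47.3 CPM in Control, and rose with no overlap (log2 fold change 1.15, SE 0.09, adjusted p = 4.6e-05). Slc25a21, a carrier of oxoadipate, had 10 counts in all. Slc25a11 overlaps Rnf167 on the opposite strand by 245 bases, and Rnf167, with 5299 counts, did not pass (log2 fold change 0.17). Genes listed as partners of citrate export and use rose in 4 of 5 cases, among them ATP citrate lyase Acly (log2 fold change 2.06, SE 0.15, adjusted p = 2.8e-05) and citrate synthase Cs (1.87), while malic enzyme Me1 did not pass (-0.24).

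The aspartate-glutamate carriers, the other carriers of the malate-aspartate shuttle, did not pass. Slc25a12 measured 14.9, 15.4 and 16.6 CPM in ADISSP, against 15.5, 20.2 and 25.6 CPM in Control (log2 fold change -0.38, SE 0.18, adjusted p = 0.134), and it was called lower without Control 1 (-0.55, adjusted p = 0.0435). It was also called lower on library totals (-0.73) and on log2(TPM + 1) (-0.84). Against Control 3 as the only control its estimate was -0.72. Slc25a13, the form known from liver, measured 1.82, 1.66 and 1.21 CPM in ADISSP, against 1.76, 2.81 and 2.05 CPM in Control (log2 fold change -0.50, SE 0.33, adjusted p = 0.27). Slc25a13 made up 16.2% ± 3.52 of the pair's summed TPM in ADISSP and 17.5% ± 3.91 in Control (SD, n = 3 each), and the libraries overlap (exact p = 0.6). The shuttle's enzymes rose in 3 of 4 cases, with malate dehydrogenases Mdh2 (1.75) and Mdh1 (0.83) and cytosolic aspartate aminotransferase Got1 (1.20) passing and the mitochondrial form Got2 (0.30) not. Slc25a22, a glutamate importer, measured 115, 108 and 97.3 CPM in ADISSP, against 44.0, 42.3 and 50.2 CPM in Control, and rose (log2 fold change 1.23, SE 0.11, adjusted p = 5.9e-05). Its relative Slc25a18 was too scarce to test, with counts of 12, 5 and 6 in ADISSP, against 5, 10 and 1 in Control. Slc25a22 held 97.5%, 98.4% and 98.6% of that pair's TPM in ADISSP, against 98.0%, 96.1% and 99.6% in Control (exact p = 0.9).

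Among carriers of ornithine and other amino acids, 2 of 4 tested members rose. Slc25a44, which imports branched-chain amino acids and is known for that role in brown fat of mice, averaged 123 ± 7.66 CPM in ADISSP and 72.2 ± 14.4 CPM in Control (log2 fold change 0.77, SE 0.14, adjusted p = 0.0039). The enzymes that break these amino acids down rose in 4 of 5 cases, among them Bckdha (1.95) and Bckdhb (1.24) of the keto acid dehydrogenase, its core subunit Dbt (1.41) and the aminotransferase Bcat2 (0.86). Slc25a15, the ornithine carrier of the urea cycle, averaged 24.6 ± 2.85 CPM in ADISSP and 14.4 ± 1.24 CPM in Control (log2 fold change 0.77, SE 0.14, adjusted p = 0.00303). The calls of Slc25a44 and Slc25a15 were lost on log2(TPM + 1). Slc25a2, a close relative of Slc25a15, had 38 counts in all and was not tested. Slc25a29, a carrier of basic amino acids, averaged 2.62 ± 0.274 CPM in ADISSP and 1.79 ± 0.0826 CPM in Control, and did not pass (log2 fold change 0.55, SE 0.27, adjusted p = 0.145), and its estimate on log2(TPM + 1) was -0.02. Slc25a38, the glycine importer needed for heme synthesis, averaged 14.2 ± 1.14 CPM in ADISSP and 12.6 ± 0.652 CPM in Control, and it too did not pass (log2 fold change 0.18, SE 0.13, adjusted p = 0.329) and was lower (-0.38) on log2(TPM + 1).

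The mitoferrins, which import iron, split. Slc25a37 measured 27.6, 26.4 and 25.5 CPM in ADISSP, against 45.9, 49.9 and 38.9 CPM in Control, and fell (log2 fold change -0.76, SE 0.12, adjusted p = 0.00154). Slc25a28 measured 30.4, 36.0 and 34.6 CPM in ADISSP, against 23.0, 23.7 and 24.4 CPM in Control, and rose (log2 fold change 0.51, SE 0.11, adjusted p = 0.00793), although on log2(TPM + 1) it stood at -0.07. The Slc25a28 call was also lost on library totals (0.15). Within each library Slc25a37 took 36.1%, 31.3% and 31.5% of the pair's TPM in ADISSP, against 55.4%, 56.7% and 49.8% in Control. That is, Slc25a37 was the lesser partner in ADISSP and close to equal or ahead in Control (exact p = 0.1). Slc25a37 is known for its role in red blood cell precursors and Slc25a28 in other tissues. Genes of heme and iron-sulfur cluster assembly, which use the imported iron, rose in 5 of 7 cases, among them Iscu (0.91) and Nfs1 (0.78).

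The glutathione carriers also split. Slc25a39, which brings the antioxidant glutathione into the matrix, measured 331, 329 and 259 CPM in ADISSP, against 88.3, 79.1 and 112 CPM in Control, and rose (log2 fold change 1.72, SE 0.16, adjusted p = 8.6e-05). Its relative Slc25a40 measured 10.2, 12.5 and 11.2 CPM in ADISSP, against 17.8, 18.5 and 15.0 CPM in Control, and fell (log2 fold change -0.60, SE 0.15, adjusted p = 0.0136). No library of either gene overlapped between groups. The Slc25a40 call was lost without ADISSP 1, Control 1 or Control 2, with an adjusted p of up to 0.0572. By TPM Slc25a39 held 99.0%, 98.8% and 98.6% of the pair in ADISSP, against 93.8%, 92.9% and 95.8% in Control (exact p = 0.1).

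Of the carriers of pyrimidine nucleotides, which feed the copying and transcription of mitochondrial DNA, Slc25a33 rose and Slc25a36 did not pass. Slc25a33 measured 17.9, 16.2 and 17.8 CPM in ADISSP, against 5.05, 5.78 and 9.84 CPM in Control (log2 fold change 1.34, SE 0.24, adjusted p = 0.00357), with Control 3 above the other Control libraries. Slc25a36 measured 67.7, 71.1 and 63.7 CPM in ADISSP, against 82.0, 88.5 and 73.8 CPM in Control, lower in every ADISSP library (log2 fold change -0.27, SE 0.10, adjusted p = 0.0591). It was called lower without Control 3 (-0.35, adjusted p = 0.00671), with upper-quartile factors (-0.35), on library totals (-0.63) and on log2(TPM + 1) (-0.82). Slc25a33 took 57.4%, 53.8% and 58.7% of the pair's TPM in ADISSP, against 23.8%, 24.9% and 40.4% in Control (exact p = 0.1). In the pair Slc25a34 and Slc25a35 both genes rose, Slc25a34 by more. Slc25a34 held 25.6%, 26.7% and 25.1% of their TPM in ADISSP, against 3.41%, 4.55% and 6.08% in Control (exact p = 0.1). Of the 8 pairs compared, Slc25a4 with Slc25a5 overlapped as well, with Slc25a4 at 38.1%, 39.0% and 40.7% in ADISSP, against 27.9%, 30.1% and 45.5% in Control (exact p = 0.4). A share within a library does not depend on how libraries are scaled to each other, but no pair can pass 0.05 with 3 libraries a group.

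**Figure D3:**
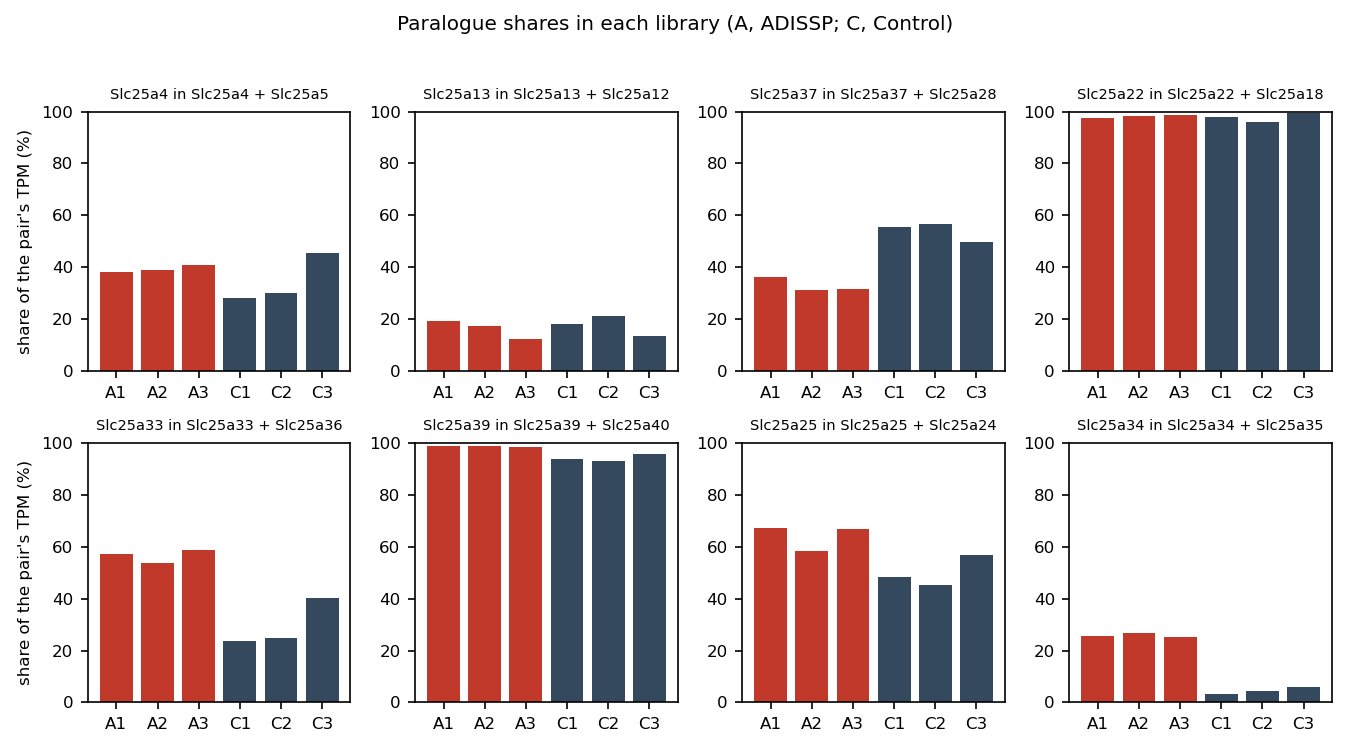
Share of the first-named gene in the summed TPM of each of the 8 pairs, in percent, as 1 bar per library with ADISSP (A1 to A3) left of Control (C1 to C3). Groups are apart in the pairs Slc25a37 with Slc25a28, Slc25a33 with Slc25a36, Slc25a39 with Slc25a40, Slc25a25 with Slc25a24 and Slc25a34 with Slc25a35, and overlap in the other 3.

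The uncoupling protein relatives did not pass, 0 of 3, and all 3 estimates were below 0. Slc25a30 averaged 19.7 ± 1.15 CPM in ADISSP and 24.4 ± 1.04 CPM in Control (log2 fold change -0.31, SE 0.11, adjusted p = 0.0589). Slc25a27 (-0.37) and Slc25a14 (-0.46) did not pass. The levels of Slc25a27 were 5.19 ± 1.27 CPM in ADISSP and 6.67 ± 0.276 CPM in Control, and those of Slc25a14 2.86 ± 0.848 CPM in ADISSP and 3.90 ± 0.752 CPM in Control. Slc25a30 was called lower with upper-quartile factors (-0.39) and on library totals (-0.66), Slc25a27 on library totals (-0.72), and all 3 on log2(TPM + 1), at -0.84 for Slc25a30, -0.81 for Slc25a27 and -0.87 for Slc25a14. Ucp1, the proton carrier of brown fat, measured 3133, 3310 and 2781 CPM in ADISSP, against 42.2, 61.5 and 94.5 CPM in Control (log2 fold change 5.54, SE 0.32, adjusted p = 2.5e-05), and it is one of the 7 brown and beige markers. Ucp3, the form of muscle and brown fat, rose (log2 fold change 1.56, SE 0.16, adjusted p = 2.2e-04). Ucp2, which is broad in its expression and high in immune cells, fell by a small amount close to the threshold (log2 fold change -0.29, SE 0.10, adjusted p = 0.049). B cell, T cell and macrophage markers were lower in the same libraries, and their part in the Ucp2 value was not tested. The carrier-like outer membrane proteins Mtch2 (1.28) and Mtch1 (0.68) rose. Slc25a46, a family member of the outer membrane that acts in mitochondrial shape, averaged 65.9 ± 2.84 CPM in ADISSP and 60.5 ± 5.16 CPM in Control, and did not pass (log2 fold change 0.12, SE 0.09, adjusted p = 0.342), with an estimate of -0.44 on log2(TPM + 1).

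Summed over the 44 carriers listed in the TPM table, carrier RNA came to 3947, 3563 and 3441 TPM in ADISSP, against 3013, 2850 and 3243 TPM in Control. The means were 3650 ± 264 TPM in ADISSP and 3035 ± 197 TPM in Control (SD, n = 3 each), with no overlap (exact two-sided permutation p = 0.1). A sum compared between groups depends on how libraries are scaled. On log2(TPM + 1) the median log2 fold change of all genes tested was -0.51. The make-up of the carrier sum differed as well. Slc25a42 held 3.93% of it in ADISSP, where it had rank 9, and 0.60% in Control, where it had rank 25. Slc25a20 held 6.06% in ADISSP and 2.10% in Control. Slc25a39 held 8.56% ± 0.49 in ADISSP and 4.66% ± 0.27 in Control. In the other direction, the citrate exporter Slc25a1 held 12.6% ± 1.48 in ADISSP and 18.2% ± 1.34 in Control, and Slc25a10 held 6.94% ± 0.66 in ADISSP and 12.4% ± 0.61 in Control. Each of these shares was apart between the groups (exact p = 0.1). Shares are parts of a whole, so a share can fall while the level of its gene does not. The CPM of Slc25a1 (log2 fold change 0.32) and Slc25a10 (0.01) overlapped between groups, and neither gene passed. Slc25a5 held 12.8% ± 0.33 in ADISSP and 15.3% ± 2.23 in Control, and its groups overlapped (exact p = 0.2). By substance, the 7 cofactor carriers held 20.6% ± 0.39 in ADISSP and 12.2% ± 0.19 in Control. The carriers of citrate, dicarboxylates and oxoglutarate held 23.2% ± 2.05 in ADISSP and 33.5% ± 1.03 in Control.

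**Figure D4:**
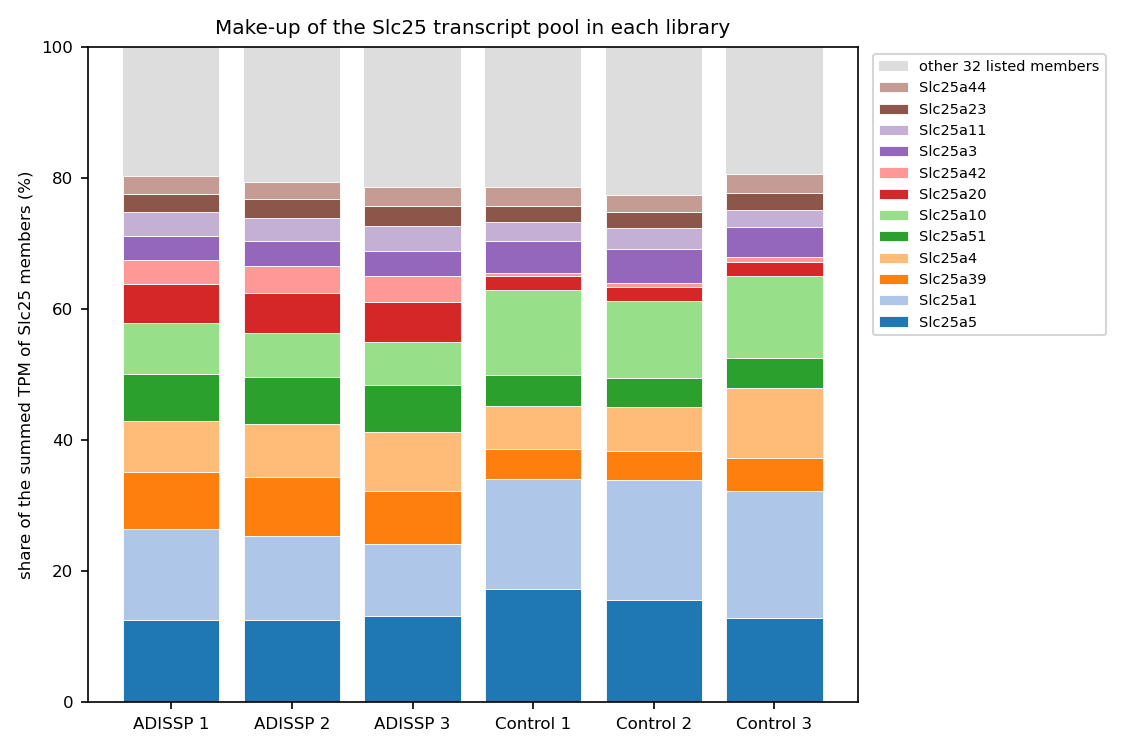
Share of 12 leading carriers, and of the other 32 together, in the summed carrier TPM of a library, in percent, as stacked bars with ADISSP left of Control. The segments of Slc25a42, Slc25a20 and Slc25a39 are larger in ADISSP and those of Slc25a1 and Slc25a10 are larger in Control.

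Carrier genes were read beside other proteins of the same membranes. Of 20 other transporters of the inner membrane, 10 rose, 1 fell and 9 did not pass, with a median log2 fold change of 0.31. Both subunits of the pyruvate carrier rose (Mpc1 1.69, Mpc2 1.54), as did the ion exchanger Letm1 (1.96), the transporter Abcb8 (1.81) and Smdt1 (1.00), a regulator of the calcium uniporter. The pore of that uniporter, Mcu, did not pass (0.25), and the sideroflexin Sfxn3 fell (log2 fold change -0.78, SE 0.16, adjusted p = 0.00669) while Sfxn5 (1.04) rose. All 4 outer membrane proteins listed rose, Vdac1 (0.90), Vdac2 (0.76), Vdac3 (0.39) and Tspo (1.14). Nuclear genes of ATP synthase, which uses the ADP and phosphate the carriers bring in, rose in 6 of 8 tested, with Atp5f1b at 1.94 and the inhibitor Atp5if1 (-0.08) not passing. Genes of the urea cycle and glycine breakdown, partners of Slc25a15 and Slc25a38, rose in 1 of 4 tested, which was Gcsh (0.80). With the relatives and the enzyme lists given in the paragraphs above, 45 of 67 tested genes were higher (67.2%) and 3 lower (4.48%). Over all genes 18.5% were higher and 16.5% lower. These lists were chosen with earlier results of these data known, so the contrast is not an independent test. They include Ucp1, which is also a brown and beige fat cell marker.

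How libraries are scaled shifts all genes together, and it changed calls of carriers that rose by less than 2-fold. With library totals alone the median of all genes tested was -0.36, and on log2(TPM + 1) it was -0.51. The carriers called were then 15 higher and 9 lower on library totals, and 13 higher and 14 lower on log2(TPM + 1). Over all 17320 genes tested, 1756 were higher and 6600 lower on library totals. On log2(TPM + 1), 1284 of them were higher and 9520 lower. In each fit the carriers' share of higher calls stayed above that of all genes and their share of lower calls below it. Slc25a3, Slc25a16, Slc25a28 and Slc25a32 changed sign on log2(TPM + 1), and Slc25a5, Slc25a15, Slc25a26 and Slc25a44 lost their call. On library totals the calls of Slc25a3 (0.12), Slc25a5 (0.24), Slc25a16 (0.07), Slc25a26 (0.32), Slc25a28 (0.15) and Slc25a32 (0.0015) were lost. The carriers that became lower calls on log2(TPM + 1) were Slc25a10, Slc25a12, Slc25a13, Slc25a14, Slc25a25, Slc25a27, Slc25a30, Slc25a36, Slc25a38, Slc25a45 and Slc25a46, with estimates of -0.38 to -0.87. The 13 carriers with at least a 2-fold rise (among them Slc25a11, Slc25a17, Slc25a20, Slc25a22, Slc25a23, Slc25a33, Slc25a34, Slc25a35, Slc25a39, Slc25a42, Slc25a48 and Slc25a51) were called higher under each of the 15 alternatives tried. For Slc25a48 this holds for a gene that passed the count filter through its ADISSP libraries alone. Control 3 stood apart from the other Control libraries in its markers of muscle and B cells. Without it 23 carriers were higher and 5 lower, with Slc25a1 and Slc25a4 added to the higher ones and Slc25a36 and Slc25a45 to the lower ones. Against Control 3 as the only control, the median log2 fold change of the carriers was 0.45. The estimate of Slc25a40 was then -0.42 and that of Slc25a12 -0.72, against -0.60 and -0.38 with all libraries. That fit sets 3 libraries against 1, takes all its spread from the ADISSP libraries and assumes that Control varies like them.

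**Figure D5:**
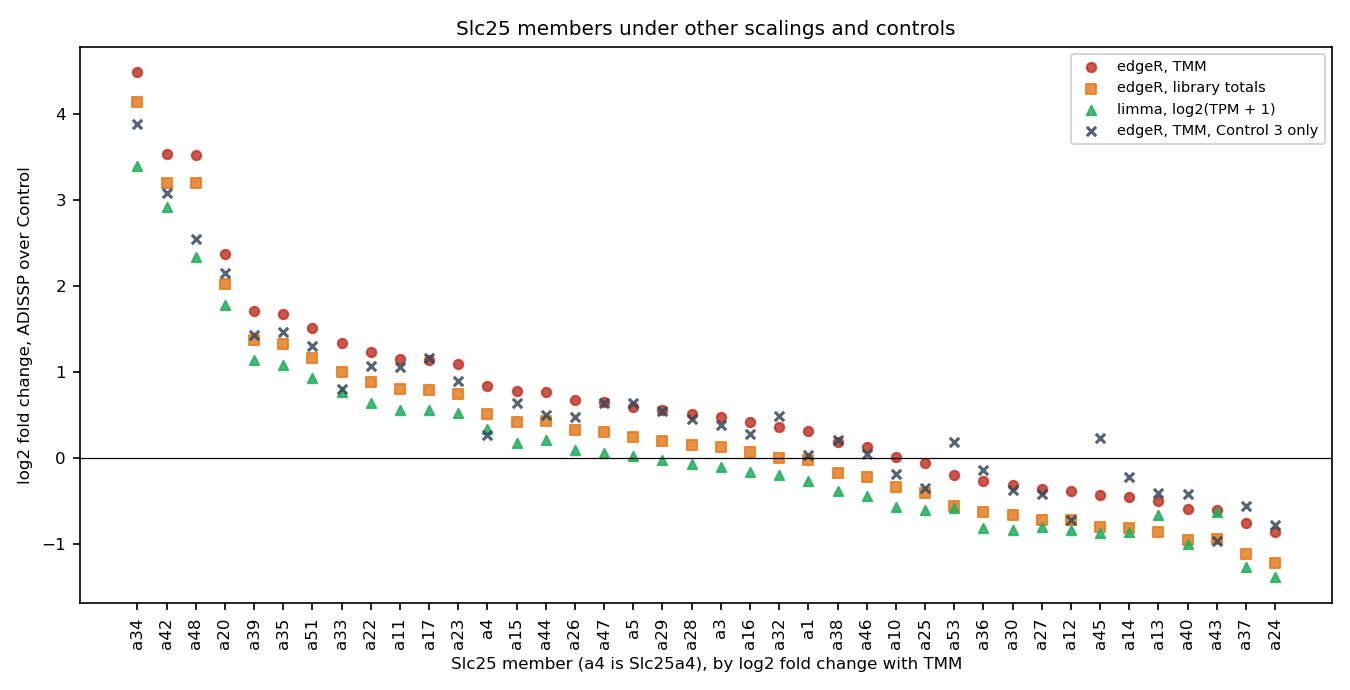
Log2 fold change (ADISSP over Control) of 40 of the 41 tested carriers, ordered by its TMM value, with TMM scaling, with library totals alone, on log2(TPM + 1) and with Control 3 as the only control. Points on library totals and on log2(TPM + 1) sit lower, and the carriers shown that rose at least 2-fold stay above 0 in all 4, while Slc25a1, Slc25a3, Slc25a10, Slc25a16, Slc25a28, Slc25a29, Slc25a32, Slc25a38 and Slc25a46 fall below 0 on log2(TPM + 1).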

How the data were processed

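RNA of iWAT was sequenced after ribosomal depletion in 3 ADISSP and 3 Control libraries, per the labels. Per the submitters' processing notes, alignment was by STAR to mm39 (GRCm39) and counting by featureCounts. Not given in the sources used here were their versions, the annotation and the strand setting. Raw gene counts for 57180 genes were deposited. The deposited FPKM values were not used in a test. The deposited TPM values, which cover 44 of the 47 carriers, were used for shares and for limma alternatives.

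The carriers and the gene lists were chosen with earlier results of these data known. Counts were tested in R 4.3.3 with edgeR 4.0.16 (filterByExpr, at least 10 counts in a library of median size, here 0.676 CPM in 3 libraries, TMM scaling, robust quasi-likelihood fit, no covariate). This left 17320 genes, over which p was adjusted by Benjamini-Hochberg. By that filter 39 carriers passed through either group alone, Slc25a48 through ADISSP alone and Slc25a43 with both groups together. The SE is the log2 fold change divided by the square root of F. Pair shares and sums were compared by an exact two-sided permutation test. Alternatives used DESeq2 1.42.0, limma 3.58.1 on log2(TPM + 1) and log2(TPM + 0.1), other factors, no filter, no mitochondrial transcripts, a block, left-out libraries and Control 3 as the only control. The fit was tested on simulated counts. Libraries within a group differed by more than sampling noise, so none was merged.

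Carriers named with every library are the 10 with the smallest p, those called lower, the 5 with the highest mean TPM and both members of 8 pairs, except 1 carrier that, like some partner genes, is not reported here. Slc25a48 was added after its values were seen, and the counts of Slc25a18 stand for a pair member that was not tested. Others are named in their role group, and genes outside the family come from the lists (the 6 with the smallest p, those against the rest of their list, and a few that did not pass, chosen after their values were seen). Carriers that overlap another gene on the opposite strand cannot be told apart from it without the strand setting, and close copies can share reads. Promoter windows came from RefSeq on GRCm38.p6, another build than that of the counts. P-values set the difference between groups against the spread between these libraries.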

Additional observations from a re-analysis of the deposited data

How the results depend on the processing

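Over 41 tested carriers and 15 alternatives, 519 of 615 fold changes kept their direction and their side of the threshold, 33 lost the call, 32 gained one and 31 changed sign. The number of carriers lower in ADISSP was 3, against 5 with upper-quartile factors, 9 on library totals and 14 on both TPM scales, where 13 were higher. Lower calls over all genes tested were 2861, against 3506 with upper-quartile factors and 6600 on library totals. On log2(TPM + 1) and log2(TPM + 0.1) they were 9520 and 9462. Leaving out 1 library gave 19 to 23 carriers higher and 2 to 5 lower, the 5 without Control 3. Of the 67 partner and transporter genes, 3 were lower, against 10 on library totals and 17 on both TPM scales, with 2 to 3 when 1 library was left out and 43 to 47 higher.

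On log2(TPM + 1) and on log2(TPM + 0.1) the sign changed for Slc25a1 (-0.27 on both), Slc25a3 (-0.10 and -0.11), Slc25a10 (-0.57 on both), Slc25a16 (-0.16 on both), Slc25a28 (-0.074 and -0.076), Slc25a29 (-0.023 and -0.031), Slc25a32 (-0.20 and -0.22), Slc25a38 (-0.38 and -0.40) and Slc25a46 (-0.44 and -0.45). On library totals it changed for Slc25a1 (-0.026), Slc25a10 (-0.34), Slc25a38 (-0.17) and Slc25a46 (-0.23). Slc25a10, whose estimate was 0.01, also changed sign with DESeq2 (-0.0042), upper-quartile factors (-0.070), no filter (-0.0017) and Control 3 as the only control (-0.19), and left-out libraries gave -0.13 to 0.12. Control 3 as the only control also turned Slc25a45 (0.23) and Slc25a53 (0.18). For Slc25a25 left-out libraries gave -0.20 to 0.091. Leaving out 1 library moved the difference in log2 TPM ratio from -0.35 to 0.088 for Slc25a13 over Slc25a12 and from -0.95 to 0.68 for Slc25a22 over Slc25a18, and it kept the sign of the other 6 pairs. The cause of these changes was not tested.

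Replicate numbers are shared by the groups. To look for pairs, the group mean was subtracted from log2(CPM + 1) in each gene, and the deviations were correlated across tested genes. Between same-numbered ADISSP and Control libraries the correlations were 0.0589, 0.0941 and 0.0579, all under 0.1, so the numbers were not taken as pairs. Among libraries of the other group, each library's deviations correlated best with those of its own number, which is a hint from the data only. With the replicate block 22 carriers were higher, Slc25a4 being the one gained, and 3 lower, and 46 partner genes were higher and 2 lower. Depth limits Slc25a2, Slc25a18, Slc25a21, Slc25a31, Slc25a41 and Slc25a54, with 1 to 39 counts in all.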
